A study of Homo sapiens with 8 samples.

Results

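The caspases and caspase regulators followed here were CASP2, CASP4, CASP6, CASP8, CASP9, CASP10, APAF1 and CFLAR, on arrays of epithelial ovarian cancer (EOC) cells silenced or not for the splicing factor SFPQ. Their probes were taken as all non-control probes whose RefSeq accession belonged to one of these 8 genes, which gave 15 of the 50599 probes of the array and 8 of the 20503 genes named on it. Of these, 13 were well above background on all 8 arrays and were among the 29018 probes tested. The other two, A_24_P3045 and A_33_P3255075, both listed for CASP10 under NM_032974, were not well above background on any array and are not considered further. Total RNA of 2 EOC lines, MDAH and SKOV3, was hybridized to single-colour Agilent arrays in 4 groups of 2: MDAH controls, MDAH cells carrying sh-SFPQ#2 or sh-SFPQ#3, SKOV3 controls, and SKOV3 cells carrying sh-SFPQ#2 or sh-SFPQ#3. The controls were not silenced for SFPQ. The labels and the methods differ on whether both carried a control shRNA or 1 of them was the parental line. Both shRNAs came from pLKO lentiviral constructs, no drug treatment is given for these samples, and the time from transduction to harvest is not given in the sources used here. The silenced arrays of a line came from cells with different shRNAs, and how the controls were cultured relative to each other is not given, so that p-values measure the spread between these samples, which mixes the construct with technical error.

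Caspases are proteases made as inactive precursors and switched on by cleavage or by being brought together. Caspase-8 and caspase-10 are the initiators recruited to death receptors, where CFLAR, a caspase-8 relative without protease activity, competes for binding. Caspase-9 is the initiator of the mitochondrial route and is activated on the apoptosome, a wheel of APAF1 molecules assembled by cytochrome c. Caspase-2 is activated on a platform built by PIDD1 and the adaptor CRADD, caspase-6 is an executioner that cuts nuclear lamins, and caspase-4 is an inflammatory caspase that senses bacterial lipopolysaccharide in the cytosol. Several of these genes, CASP9, CASP8, CASP2 and CFLAR among them, are known to be spliced into forms that promote or block cell death. The question addressed was whether the RNA of the caspase system differed between silenced and control cells.

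A level is given here as the log2 of the processed signal relative to the 75th percentile of its array, so that 0 is that percentile and a difference of 1 is a doubling. The 75th percentile of the signal ranged from 387 to 496 on 7 of the arrays and was 244 on the MDAH sh-SFPQ#3 array. The share of probes well above background was 47.7% at the lowest and 57.0% at the highest, no probe was saturated, and all arrays lay on 1 slide with each line in a row of its own, so that line and position on the slide cannot be told apart. In RNA of whole cultures, fewer cells of a type and less RNA per cell cannot be told apart either. Of 6 epithelial markers, 5 were well above background on all 8 arrays and CDH1 on 6, and PAX8 and FOLR1, of 4 markers of ovarian epithelium, were so on all 8. WT1 was well above background on the 4 MDAH arrays and not on the SKOV3 arrays, and MUC16 on the 2 silenced SKOV3 arrays alone. CD3E, which defines T cells, was not well above background on any array. The other 3 of 4 leukocyte markers were well above background on all arrays, PTPRC among them at levels between -3.51 and -2.28, as were 1 of 3 endothelial and 1 of 3 fibroblast markers. COL1A1, a fibroblast marker, rose on average with silencing by 1.18 (limma adjusted p = 0.0266). Of the 4 ovarian epithelium markers 1 was also called higher on average, and the highest change among them was 1.20, for MUC16. That average joined 0.50 in MDAH cells, where MUC16 was not well above background, with 1.90 in SKOV3 cells. The median over the 4 was 0.34, and 2 of the 4 were on the higher side. The part of these markers in the changes given here was not tested. The MDAH controls read 3.64 and 3.91 for SFPQ itself, the array of sh-SFPQ#2 read 2.45 and that of sh-SFPQ#3 read 2.10. The SKOV3 controls read 4.84 and 4.66, the array of sh-SFPQ#2 read 3.01 and that of sh-SFPQ#3 read 2.48. SFPQ fell in both lines, by 1.50 (standard error 0.24, adjusted p = 0.0300) in MDAH and by 2.01 (standard error 0.24, adjusted p = 0.0220) in SKOV3 cells, from limma with Benjamini-Hochberg adjustment over all probes tested. Leaving out 1 array took the SFPQ call away in 5 of 8 instances in MDAH cells (either control of either line, or MDAH sh-SFPQ#3) and in 3 of 8 in SKOV3 cells (either MDAH control, or SKOV3 control 1), at falls of at least 1.33 and 1.92. It was also lost with no filter on dim probes in both lines and with median centring in MDAH cells. The fall averaged over both lines kept its call in all of them.

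Control cells of both lines differed in CASP6, CASP9, APAF1 and CFLAR, as described further on. The stretches around the start of these genes are shown, as CASP6 was the higher in SKOV3 and the other 3 the lower. CASP8 and CASP10 also differed between the lines and are not shown. The stretches were taken from RefSeq (GRCh38.p14), from 250 bases before to 50 after a start. All members but CASP10 were matched, which made 7 of the 8, with 14 windows in all. CFLAR had 4 windows and CASP9 had 2. Capitals mark the GC box GGGCGG or, on the opposite strand, CCGCCC, and overlapping copies run together. The windows are CASP6 at chr4:109703396-109703695 (minus strand), CASP9 at chr1:15524166-15524465 (minus), APAF1 at chr12:98645040-98645339 (plus) and the first CFLAR window at chr2:201118466-201118765 (plus).
CASP6: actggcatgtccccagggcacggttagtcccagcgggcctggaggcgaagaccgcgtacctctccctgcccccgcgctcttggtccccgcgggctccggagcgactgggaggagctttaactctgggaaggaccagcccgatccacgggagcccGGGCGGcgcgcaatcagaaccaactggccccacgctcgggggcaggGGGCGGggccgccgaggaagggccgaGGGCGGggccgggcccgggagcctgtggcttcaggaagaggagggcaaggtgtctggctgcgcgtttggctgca
CASP9: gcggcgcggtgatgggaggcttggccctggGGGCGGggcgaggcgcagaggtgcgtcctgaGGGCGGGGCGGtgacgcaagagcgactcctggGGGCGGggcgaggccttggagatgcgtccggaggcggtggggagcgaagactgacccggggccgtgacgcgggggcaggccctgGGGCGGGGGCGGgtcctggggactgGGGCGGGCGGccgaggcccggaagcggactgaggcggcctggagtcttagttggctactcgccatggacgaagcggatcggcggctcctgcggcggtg
APAF1: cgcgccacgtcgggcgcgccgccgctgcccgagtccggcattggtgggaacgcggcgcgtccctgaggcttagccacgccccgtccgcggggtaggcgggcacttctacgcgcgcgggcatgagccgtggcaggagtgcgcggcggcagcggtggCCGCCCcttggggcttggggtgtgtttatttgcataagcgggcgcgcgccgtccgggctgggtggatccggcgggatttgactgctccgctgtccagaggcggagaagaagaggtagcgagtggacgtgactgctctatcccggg
CFLAR: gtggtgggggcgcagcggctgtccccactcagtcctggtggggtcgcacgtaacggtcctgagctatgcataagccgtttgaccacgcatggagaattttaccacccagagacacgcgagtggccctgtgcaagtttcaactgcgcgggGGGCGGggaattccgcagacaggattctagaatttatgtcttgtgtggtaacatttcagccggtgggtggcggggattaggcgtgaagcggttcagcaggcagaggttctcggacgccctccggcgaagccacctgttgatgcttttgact
The CASP9 window held 8 copies of the motif, that of CASP6 held 3, and those of APAF1 and CFLAR held 1 each. The 3 windows of CASP8, not shown, held 1, 0 and 0. At least 1 copy was present in 9 of the 14 member windows and in 45.0% of the 35116 windows of all genes. The letters TATAAA, on either strand, were found in 1 of the 14, a CASP8 window, and in 11.5% of all windows. GC made up 76.0% of the CASP9 window, 72.0% of that of CASP6, 71.3% of that of APAF1 and 58.7% of that of CFLAR, against a median of 58.7% over all windows. A match is a description of the letters in these windows, and no binding was measured.

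Silencing of SFPQ was first compared with the controls within each line. No caspase, APAF1 or CFLAR probe passed an adjusted p of 0.05 in either line. The members with the same direction in both lines were CASP9, CASP8 and 2 CFLAR probes on the higher side and CASP6, CASP4, APAF1, CASP10 probe A_33_P3383283 and 2 further CFLAR probes on the lower side, where APAF1 and CFLAR A_21_P0001952 turned to the higher side in MDAH cells with median centring and APAF1 also with quantile normalization. In MDAH cells 0 of 13 probes were called by limma, where 2.69% of all probes tested were, and 0 of 13 had an unadjusted p under 0.05, where 21.5% of all probes did. In SKOV3 cells 0 of 13 were called, with 1.3% of all probes, and 2 of 13 had an unadjusted p under 0.05, with 18.6%. With both lines averaged 0 of 13 were called, where 6.46% of all probes were, and 3 of 13 had an unadjusted p under 0.05, where 24.9% did. The median change of the 13 probes was -0.06 in MDAH, -0.13 in SKOV3 and -0.06 on average, against 0.07, -0.03 and 0.02 over all probes. Centring each array on its median instead moved the median of all probes in MDAH cells to 0.18, so that MDAH values near 0 have no settled sign.

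**Figure D1:**
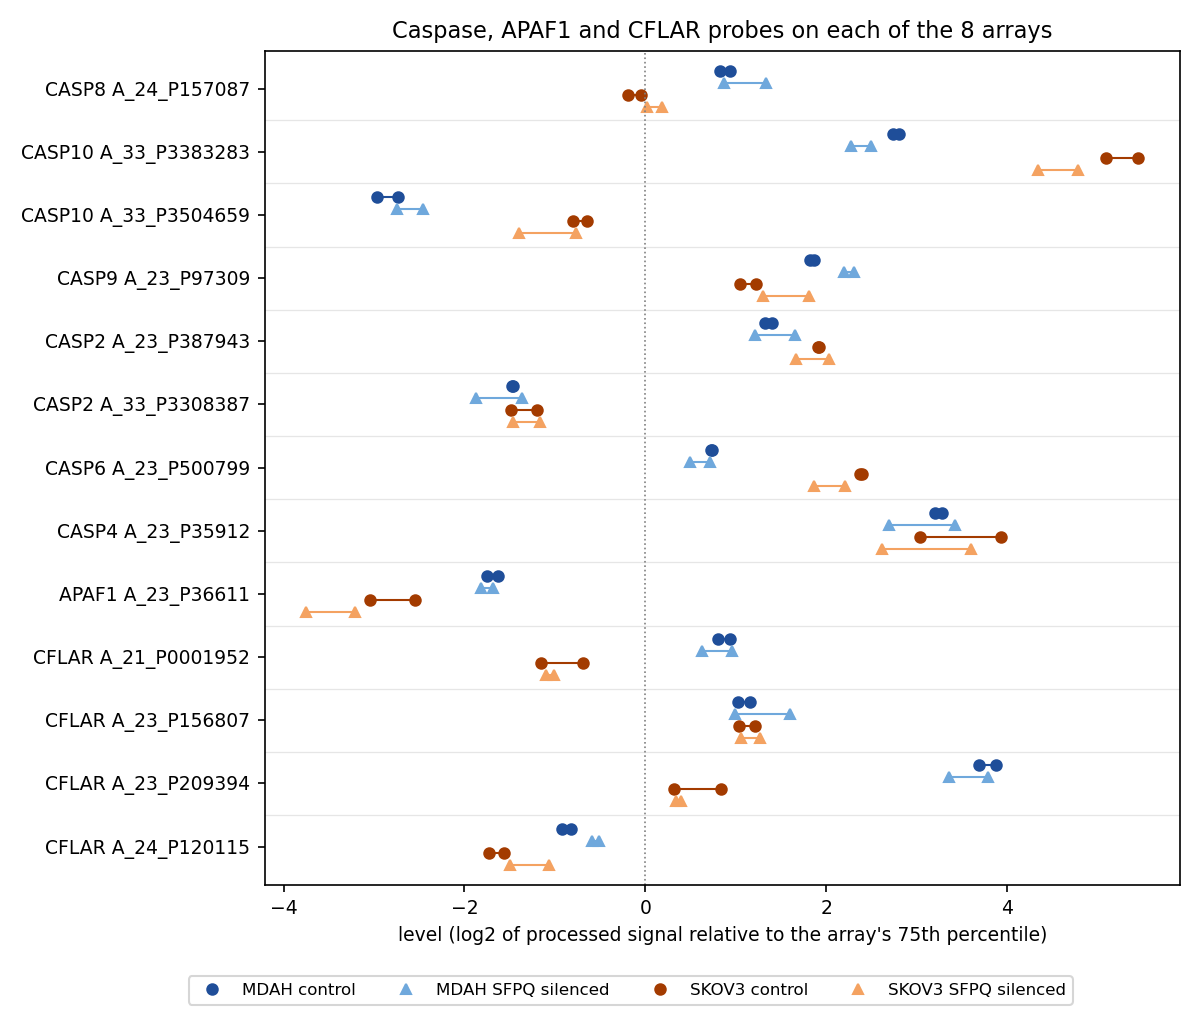
Level of each of the 13 tested probes on each of the 8 arrays, as log2 of the processed signal relative to the 75th percentile of the array (horizontal axis). Circles are controls, triangles are SFPQ-silenced cells, and a line joins the 2 arrays of a group. The CASP10, CASP6 and CFLAR A_23_P209394 probes separate the lines, while the triangles stay close to the circles of their own line.

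Among the initiators, CASP9 was higher after silencing in both lines without passing the test. Its only probe, A_23_P97309 (NM_001229), read 1.82 and 1.86 in MDAH controls, 2.20 under sh-SFPQ#2 and 2.31 under sh-SFPQ#3. In SKOV3 cells it read 1.05 and 1.23 in controls, 1.30 under sh-SFPQ#2 and 1.81 under sh-SFPQ#3. The silenced arrays lay above both controls in each line, by a wide margin in MDAH cells and by a narrow one for sh-SFPQ#2 in SKOV3 cells. The difference was 0.42 in MDAH (standard error 0.21, 95% interval -0.08 to 0.91, limma adjusted p = 0.299) and 0.41 in SKOV3 (interval -0.08 to 0.91, adjusted p = 0.340). Averaged over both lines it was 0.41 (interval 0.07 to 0.76, unadjusted p = 0.0265 from limma, adjusted p = 0.143), a 1.33-fold higher level that did not pass. The SKOV3 difference was 0.16 without the sh-SFPQ#3 array and 0.67 without the sh-SFPQ#2 array. The change in MDAH minus that in SKOV3 was 0.00 (standard error 0.29, interval -0.70 to 0.70). A single probe gives the sum of the transcripts that hold its sequence, so that the splice forms of CASP9 cannot be told apart here.

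CASP8, the death receptor initiator, read 0.83 and 0.94 in MDAH controls and 0.87 and 1.33 after silencing on probe A_24_P157087 (NM_033355). In SKOV3 cells the controls read -0.04 and -0.19 and the silenced arrays 0.02 and 0.18. Silenced and control arrays overlapped in MDAH and did not overlap in SKOV3, where both silenced arrays were the higher. The difference was 0.21 (interval -0.27 to 0.69) in MDAH and 0.22 (interval -0.26 to 0.70) in SKOV3 cells, and neither passed (limma adjusted p = 0.580 and 0.591).

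CASP10, its closest relative, had 2 tested probes listed under NM_032977. Probe A_33_P3383283 read 2.74 and 2.80 in MDAH controls and 2.27 and 2.49 with sh-SFPQ#2 and sh-SFPQ#3. In SKOV3 cells it read 5.10 and 5.45 in controls and 4.79 and 4.34 after silencing, so that the silenced arrays lay below both controls in each line. The difference was -0.38 (limma adjusted p = 0.359) in MDAH and -0.71 (interval -1.24 to -0.19, limma adjusted p = 0.163) in SKOV3 cells. Its average of -0.55 (standard error 0.16, interval -0.92 to -0.18, adjusted p = 0.0868 from limma) was the largest average change of any member probe. It passed under 2 of the 17 alternatives, with normexp background correction and quantile normalization together (adjusted p = 0.0331) and with trend and robust moderation (adjusted p = 0.0443). The second probe, A_33_P3504659, read -2.74 and -2.97 in MDAH controls and -2.74 and -2.46 after silencing, against -0.64 and -0.80 in SKOV3 controls and -1.40 and -0.77 after silencing. Silenced and control arrays overlapped in both lines, and the differences were 0.25 (interval -0.34 to 0.84) and -0.36 (interval -0.95 to 0.23), of opposite sign. The average change of the first probe differed from that of the second by -0.49, a difference that did not pass (adjusted p = 0.341 from limma's diffSplice).

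CASP2 showed no common direction. Probe A_23_P387943 (NM_032982) read 1.40 and 1.33 in MDAH controls, 1.22 under sh-SFPQ#2 and 1.66 under sh-SFPQ#3, and in SKOV3 cells 1.91 and 1.93 in controls, 2.03 under sh-SFPQ#2 and 1.66 under sh-SFPQ#3. The silenced arrays lay on either side of the controls in both lines, and the shRNA with the higher value was a different one in each line. The average change was 0.00 (interval -0.36 to 0.36). Probe A_33_P3308387, of the same accession, read between -1.87 and -1.16 on all arrays, with overlapping groups and an average change of -0.06 (interval -0.45 to 0.33).

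CASP6, the executioner of the group, was slightly lower after silencing in both lines without passing the test. Probe A_23_P500799 (NM_001226) read 0.73 on both MDAH control arrays, 0.72 under sh-SFPQ#2 and 0.49 under sh-SFPQ#3. In SKOV3 cells it read 2.37 and 2.39 in controls, 2.21 under sh-SFPQ#2 and 1.86 under sh-SFPQ#3. The silenced arrays lay below both controls in each line, though in MDAH cells sh-SFPQ#2 was at nearly the control level. The difference was -0.13 (interval -0.56 to 0.31) in MDAH and -0.35 (interval -0.78 to 0.08) in SKOV3 cells, with an average of -0.24 (limma adjusted p = 0.302).

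CASP4, the inflammatory caspase, had the largest standard error of the 13 probes. Probe A_23_P35912 (NM_033306) read 3.28 and 3.20 in MDAH controls, 3.43 under sh-SFPQ#2 and 2.69 under sh-SFPQ#3. In SKOV3 cells the controls read 3.04 and 3.93 and the silenced arrays 3.60 and 2.62. The groups overlapped in both lines, and sh-SFPQ#3 was the lowest of the 4 arrays in each. The standard error of its difference was 0.44, against a median of 0.23 over all probes, and the changes of -0.18 and -0.38 were smaller than it.

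APAF1, the scaffold of the apoptosome, did not pass in either line. Probe A_23_P36611 (NM_181861) read -1.75 and -1.63 in MDAH controls and -1.82 and -1.68 after silencing, and the groups overlapped. In SKOV3 cells it read -2.55 and -3.05 in controls, -3.75 under sh-SFPQ#2 and -3.20 under sh-SFPQ#3, so that both silenced arrays were the lower. These levels were near the floor, as the lowest signal well above background on the SKOV3 sh-SFPQ#2 array was at -4.05. The difference was -0.06 (interval -0.66 to 0.54) in MDAH and -0.68 (interval -1.28 to -0.08, unadjusted p = 0.0314, limma adjusted p = 0.220) in SKOV3 cells. Over the 17 alternatives the SKOV3 difference ranged from -0.95 to -0.33. The change in MDAH minus that in SKOV3 was 0.62 (interval -0.22 to 1.47, adjusted p = 0.454 from limma).

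CFLAR, the decoy of caspase-8, had 4 probes. On A_24_P120115 (NM_003879) the MDAH controls read -0.83 and -0.93 and the silenced arrays -0.51 and -0.59, against -1.73 and -1.56 in SKOV3 controls, and -1.07 and -1.50 after silencing. Both silenced arrays were above both controls in each line, by the least for sh-SFPQ#3 in SKOV3 cells. The average change was 0.34 (interval 0.02 to 0.67, unadjusted p = 0.0412, adjusted p = 0.182 from limma). On A_23_P209394 (NM_001127184) the level was 3.87 and 3.69 in MDAH controls and 3.79 and 3.35 after silencing, and in SKOV3 cells 0.32 and 0.83 in controls and 0.39 and 0.34 after silencing. The groups overlapped in both lines, with an average change of -0.21 (interval -0.61 to 0.19). The other two probes, A_21_P0001952 and A_23_P156807, share the accession NM_001202519. On A_21_P0001952 the silenced arrays read 0.63 and 0.96 in MDAH and -1.10 and -1.01 in SKOV3 cells, beside controls of 0.94 and 0.81, and -1.15 and -0.69. On A_23_P156807 they read 0.99 and 1.60 in MDAH and 1.05 and 1.27 in SKOV3 cells, beside controls of 1.02 and 1.15, and 1.22 and 1.03. Their average changes were -0.11 (interval -0.47 to 0.26) and 0.12 (interval -0.27 to 0.52), and their groups overlapped in both lines.

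**Figure D2:**
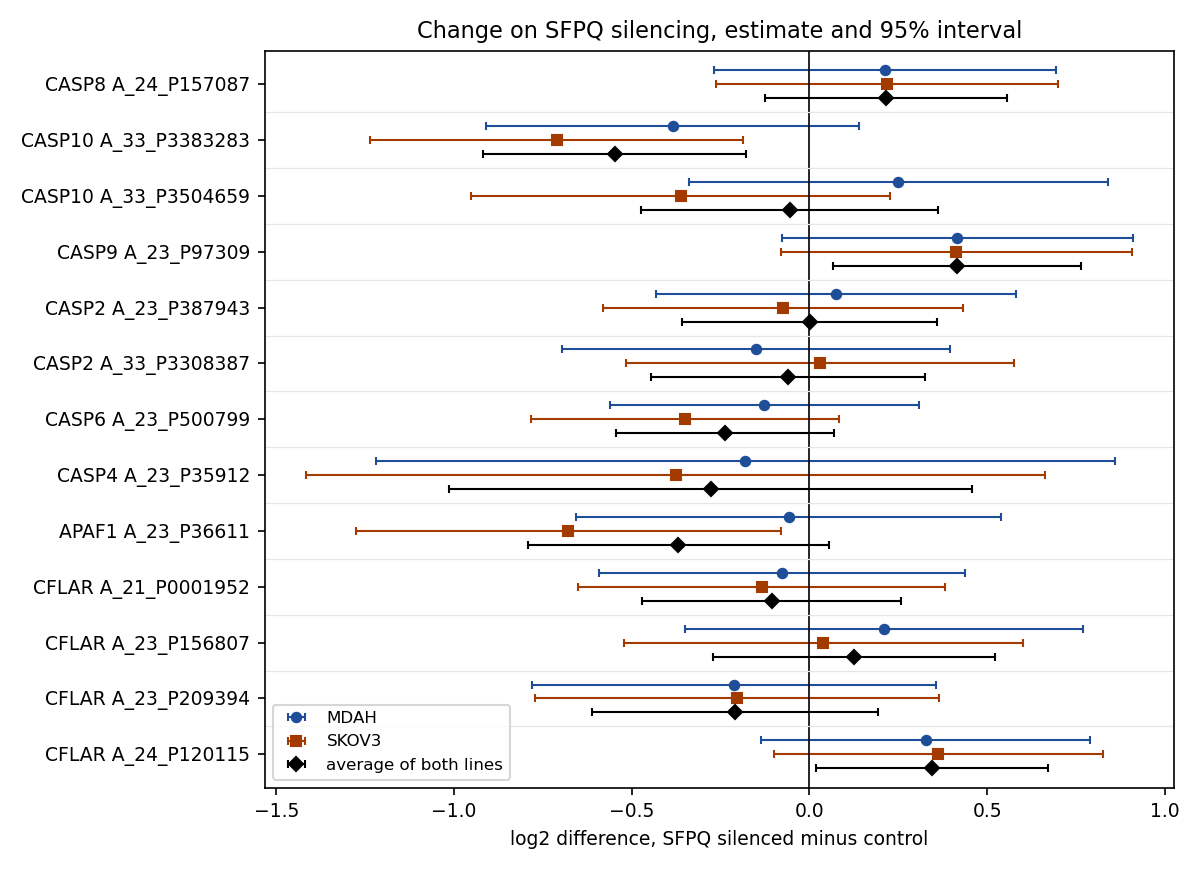
Change of each probe on SFPQ silencing (log2 difference, silenced minus control) in MDAH cells (circles), SKOV3 cells (squares) and averaged over both (diamonds), with 95% intervals from limma. The average interval excludes 0 for CASP9, CASP10 A_33_P3383283 and CFLAR A_24_P120115, and none of these passed after adjustment over all probes.

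Both silenced arrays lay above both controls in each line for 2 of 13 probes (CASP9 and CFLAR A_24_P120115), where 11.3% of all probes tested did so. They lay below for 2 of 13 (CASP6 and CASP10 A_33_P3383283), where 10.3% did, and no member lay on opposite sides, where 11% did. In MDAH cells alone silenced and control arrays did not overlap on 4 of 13 probes, with 54.9% of all probes, and in SKOV3 cells on 6 of 13 (the same 4, CASP8 and APAF1), with 56.3%. For the difference of silencing between the lines 0 of 13 were called, where 0.145% of all probes were, and 0 of 13 had an unadjusted p under 0.05, where 13.9% did.

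For the genes with more than 1 tested probe, each probe's change was set against that of its sister probes. The splice forms that each probe covers were not worked out. The comparison therefore shows whether probes of a gene moved apart and cannot decide whether splice forms changed. None of the 8 probes of CASP2, CASP10 and CFLAR was called in MDAH cells, in SKOV3 cells or in their average, where 2.04%, 1.41% and 5.14% of 9472 probes were. The smallest p was that of CFLAR A_24_P120115, whose average change was higher than that of its sister probes by 0.41 (unadjusted p = 0.0339, adjusted p = 0.254 from limma's diffSplice). This comparison treats the probes on an array as independent.

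The 2 shRNAs gave different readings for several members. sh-SFPQ#3 left less SFPQ than sh-SFPQ#2, with differences of -0.35 in MDAH and -0.53 in SKOV3 cells. The level with sh-SFPQ#3 minus that with sh-SFPQ#2 was -0.73 in MDAH and -0.98 in SKOV3 cells for CASP4, and -0.23 and -0.34 for CASP6. CASP9 read higher with sh-SFPQ#3, by 0.11 and 0.51, APAF1 by 0.13 and 0.54, and CASP8 by 0.46 and 0.16. The sign was the same in both lines for 10 of 13 member probes and for 61.4% of all probes tested, with 1 array per shRNA and line and no test. CASP2 was opposite on both of its probes, higher with sh-SFPQ#3 in MDAH cells (0.44 and 0.51) and lower in SKOV3 cells (-0.36 and -0.29). CASP10 was opposite on A_33_P3383283 (0.22 in MDAH and -0.45 in SKOV3 cells) and higher in both on A_33_P3504659 (0.28 and 0.63). Control 2 minus control 1 in SKOV3 cells was 0.89 for CASP4, 0.02 for CASP6, 0.17 for CASP9, -0.50 for APAF1 and -0.15 for CASP8. In MDAH cells it was -0.08, 0.01, 0.04, 0.12 and 0.11 in the same order. The largest absolute difference of any member probe was 0.98 between shRNAs and 0.89 between controls.

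**Figure D3:**
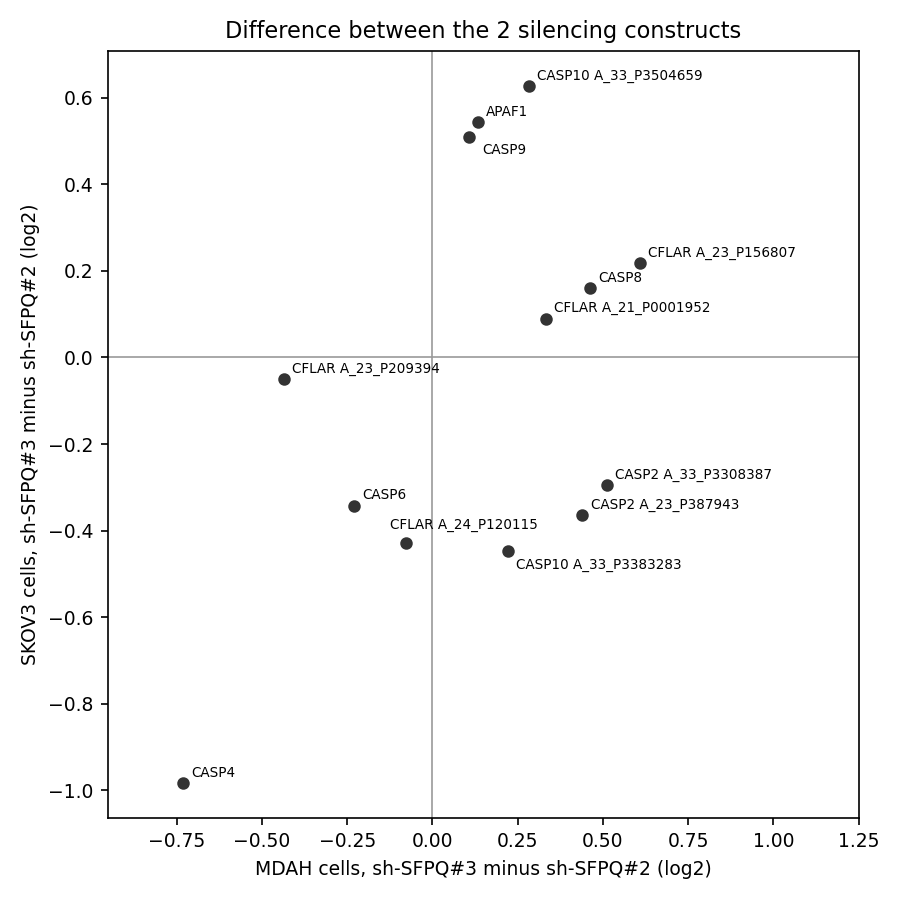
Difference between the arrays with sh-SFPQ#3 and sh-SFPQ#2 for each member probe, in MDAH cells (horizontal axis) and SKOV3 cells (vertical axis), both as log2 differences with 1 array per shRNA and line. CASP4 lies farthest from 0, at -0.73 and -0.98, and 10 of the 13 points have the same sign in both lines.

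The control cells of the lines were then compared, which gave the levels of the system without silencing. SKOV3 controls had more CASP10 and CASP6 and less APAF1, CASP8, CASP9 and, on 3 of its 4 probes, CFLAR than MDAH controls. In all, 9 of 13 member probes passed, 3 higher and 6 lower in SKOV3. Of all probes 51.8% passed, 25.9% higher and 25.9% lower. The control arrays of the lines were free of overlap on 10 of 13 member probes and on 82.5% of all probes tested. CASP10 was higher in SKOV3 by 2.50 (standard error 0.22, a 5.67-fold level, adjusted p = 0.000160) on A_33_P3383283 and by 2.13 (adjusted p = 0.000523) on A_33_P3504659, from limma. CASP6 was higher by 1.65 (standard error 0.18, 3.15-fold, limma adjusted p = 0.000419). CASP8 was lower in SKOV3 controls (a 2.01-fold difference, standard error 0.20 on the log2 scale, limma adjusted p = 0.00572), so that the death receptor initiators CASP8 and CASP10 differed in opposite directions. The apoptosome pair went the same way, with APAF1 lower in SKOV3 (-1.10, standard error 0.25, limma adjusted p = 0.00947) and CASP9 lower as well (-0.70, standard error 0.21, limma adjusted p = 0.0271). APAF1 lost its call without MDAH control 2 or SKOV3 control 2 (limma adjusted p = 0.0592 and 0.0608). CASP9 lost it without any 1 of the 4 control arrays and with median centring, at a limma adjusted p of up to 0.133. CASP2 A_23_P387943 was 0.56 higher in SKOV3 (limma adjusted p = 0.0653) and passed under 5 of 17 alternatives. CASP4 differed by 0.24 (interval -0.80 to 1.28) and the second CASP2 probe by 0.13 (interval -0.42 to 0.67), neither of which passed.

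**Figure D4:**
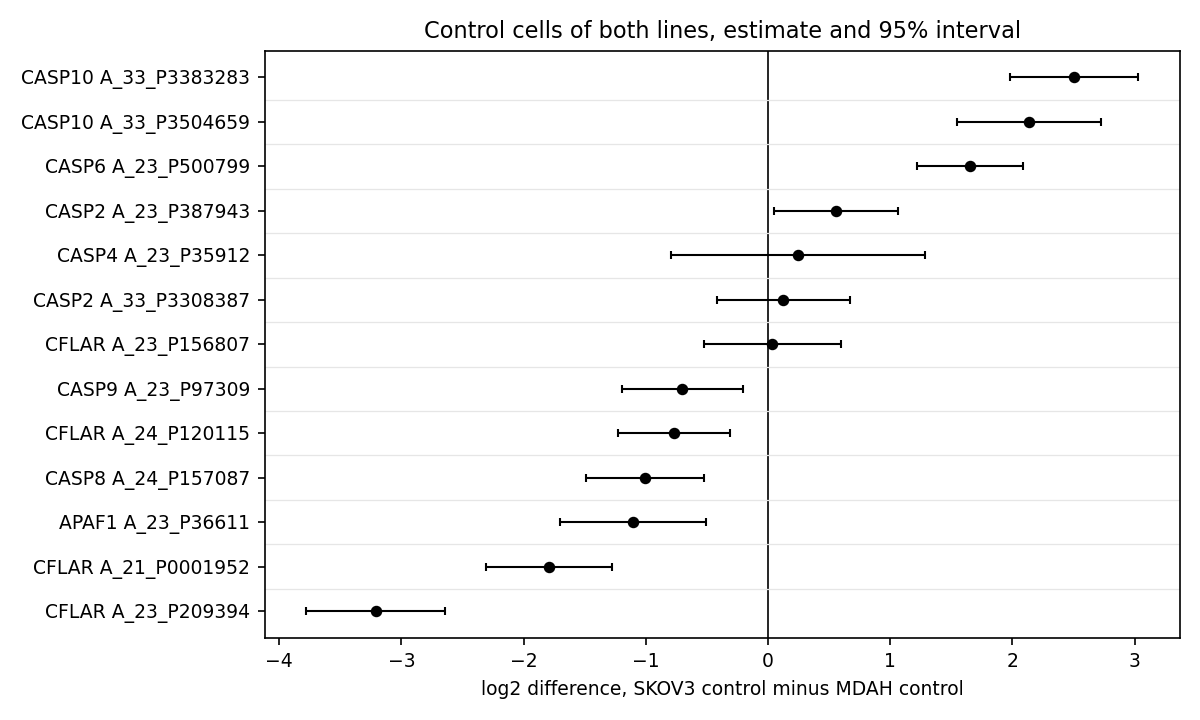
Difference between SKOV3 and MDAH control cells for each member probe (log2, SKOV3 minus MDAH), with 95% intervals from limma. CASP10 and CASP6 lie on the higher side, and the 4 CFLAR probes spread from -3.21 to 0.04.

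The CFLAR probes differed between the lines by unequal amounts. A_23_P209394 was lower in SKOV3 controls (-3.21, standard error 0.24, a 9.25-fold difference, limma adjusted p = 7.76e-05), from 3.87 and 3.69 in MDAH to 0.32 and 0.83 in SKOV3. A_21_P0001952 was lower (-1.79, limma adjusted p = 0.000619), from 0.94 and 0.81 to -1.15 and -0.69. A_24_P120115 was lower (-0.77, limma adjusted p = 0.0145), and it did not pass with median centring or without MDAH control 1, MDAH control 2 or SKOV3 control 1. On A_23_P156807 the lines were alike within the error, with 1.02 and 1.15 for the MDAH controls, 1.22 and 1.03 for those of SKOV3 and a difference of 0.04 (interval -0.52 to 0.60). In a comparison added after these levels had been seen, 3 of the 4 differed from their sister probes, A_23_P209394 by -2.37 (adjusted p = 3.01e-06), A_23_P156807 by 1.96 (adjusted p = 2.42e-05) and A_24_P120115 by 0.89 (adjusted p = 0.0229), all from limma's diffSplice. Each probe was set there against the other probes of its gene, so that the 3 calls depend on each other. A_24_P120115 was on the higher side of its sister probes while its own line difference was -0.77. No probe of CASP2 or CASP10 was called in this comparison, and of all 9472 probes 14.3% were. A_21_P0001952 and A_23_P156807 are listed under the same accession and gave line differences of -1.79 and 0.04, a pair that was not tested against each other.

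The control arrays of the lines were separated on 10 of 13 probes, where 82.5% of all probes tested were, and the 4 groups on fewer. The share of all probes with all 4 groups separated was not worked out, so the orders below are a description. On CASP6 and on CASP10 A_33_P3383283 the order from high to low was SKOV3 controls, silenced SKOV3, MDAH controls and silenced MDAH cells, and each neighbour was separated from the next. On CASP9 and CFLAR A_24_P120115 it was silenced MDAH, MDAH controls, silenced SKOV3 and SKOV3 controls, again with all neighbours separated. For CASP8 the order was the same, with overlap between silenced and control MDAH cells. APAF1 ran from MDAH controls over silenced MDAH cells and SKOV3 controls to silenced SKOV3 cells, and the first pair overlapped. On CASP2 A_23_P387943, CASP10 A_33_P3504659 and CFLAR A_21_P0001952 and A_23_P209394 the lines were apart, while silenced and control cells of each line overlapped. For CASP2 A_23_P387943 the lines barely cleared each other, with sh-SFPQ#3 at 1.657 in MDAH and 1.662 in SKOV3 cells. For CASP4, CASP2 A_33_P3308387 and CFLAR A_23_P156807 every neighbour overlapped.

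The rest of the death pathway was followed through 7 lists of 54 genes, of which 48 were tested, each by its brightest probe. In MDAH cells 0 of 48 were called by limma, where 2.69% of all probes were, and 10 had an unadjusted p under 0.05, where 21.5% did. In SKOV3 cells 1 was called, where 1.3% of all probes were, and in the average of both lines 3, of which 2 were higher and 1 lower, with 6.46% of all probes as the background. TNFRSF10B, the TRAIL receptor DR5 that recruits caspase-8 and caspase-10, read 4.91 and 5.15 in MDAH controls and 5.70 and 5.84 after silencing, and 4.23 and 4.44 in SKOV3 controls and 4.92 and 5.13 after silencing. All silenced arrays were above the controls of their line, and the average rise was 0.71 (standard error 0.13, adjusted p = 0.0276 from limma). CRADD, the adaptor of caspase-2, read 1.43 and 1.50 in MDAH controls and 0.55 and -0.35 after silencing, and 2.27 and 2.43 in SKOV3 controls and 1.45 and 0.35 after silencing. It was lower on every silenced array and lowest with sh-SFPQ#3, and on average it fell by 1.41 with a standard error of 0.29 (limma adjusted p = 0.0410). TNF, a death receptor ligand, read -0.23 and 0.40 in SKOV3 controls and 2.01 and 1.99 after silencing, a rise of 1.92 (standard error 0.30, adjusted p = 0.0419 from limma), against 5.48 and 6.12 in MDAH controls and 6.01 and 5.60 after silencing. Its change in MDAH minus that in SKOV3 cells was -1.91 (limma adjusted p = 0.181). Over the 17 alternatives TNFRSF10B kept its averaged call in 10, CRADD in 9, TNF in SKOV3 cells in 8 and its averaged call (0.96, limma adjusted p = 0.0493) in 4, and none of these changes turned its sign. TNFRSF10B and CRADD did not pass without any 1 of the 4 controls or without either sh-SFPQ#3 array, and TNF in SKOV3 cells did not pass without any 1 array other than SKOV3 control 2.

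The counts by list are for the average, where 6.46% of all probes were called. Of 8 death receptors and ligands tested 2 were higher and none lower, with a median change of 0.37, against 0.02 over all probes. The 2 were TNFRSF10B and TNF, and TNF changed by 0.0015 in MDAH and by 1.92 in SKOV3 cells. FAS, the receptor for FAS ligand, had changes between 0.17 and 0.30 on its 3 probes, and none passed. TNFSF10, the TRAIL ligand, was not well above background on any MDAH array on A_23_P121253, and its changes in the average, 0.57 there and 0.75 on A_33_P3226810, did not pass. Of 8 adaptors 1 was lower and none higher (median 0.23). FADD, which links receptors to caspase-8, differed by 0.12 (limma adjusted p = 0.588). None of 6 inhibitors of apoptosis was called (median 0.05), with XIAP, an inhibitor of caspase-9, at 0.04 and -0.17 on its 2 probes and BIRC3 at 0.54. None of 9 mitochondrial factors and apoptosome regulators was called (median -0.11). There DIABLO, which relieves XIAP, differed by -0.19, and the cytochrome c gene CYCS by -0.11 and -0.13 on 2 probes and by 0.66 on another, A_32_P174083 (limma adjusted p = 0.0642). The first 2 CYCS probes changed by 0.16 and 0.15 in MDAH and by -0.38 and -0.40 in SKOV3 cells, and neither passed in a line. None of 7 caspase substrates was called (median 0.10), with PARP1 at -0.17 and -0.09 on its 2 probes and GSDMD, the pore-forming target of caspase-4, at 0.28. The PARP1 probes changed by 0.05 and 0.21 in MDAH and by -0.40 and -0.40 in SKOV3 cells, none of which passed. None of 6 splicing regulators was called (median -0.07), with SRSF2 at -0.03 and 0.01 and NONO, the partner of SFPQ, at -0.08 and 0.10, on 2 probes each. These averages joined opposite signs in the lines, and no single line passed either. In the same probe order SRSF2 changed by 0.21 and 0.21 in MDAH and by -0.27 and -0.18 in SKOV3 cells. NONO changed by 0.17 and 0.40 in MDAH and by -0.32 and -0.19 in SKOV3 cells. None of the 4 other caspases tested was called.

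Between the control lines 27 of the 48 list genes passed, 18 higher and 9 lower in SKOV3, with 51.8% of all probes, as given above. With all named genes taken by their brightest probe, 8960 of 15568 passed. TNFSF10 was not well above background in MDAH controls and was at least 10.9-fold higher in SKOV3 controls (limma adjusted p = 4.03e-05). CASP1, an inflammatory relative of caspase-4 and named here after its values were seen, was likewise not well above background in MDAH controls and at least 4.73-fold higher in SKOV3 controls (limma adjusted p = 0.000244). These bounds set the mean of the bright group against the lowest signal well above background in the dim group, or the probe's own where that was higher. TNFRSF10B was lower in SKOV3 controls (-0.69, limma adjusted p = 0.0166) and FADD was higher (1.05, limma adjusted p = 0.00290).

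The genes with the pattern most like CASP9 over the 8 arrays were FGFR4 (Pearson r = 0.997), DLD (r = 0.993) and SPSB3 (r = 0.992). Those most like CASP10 A_33_P3383283 were AP2M1 (r = 0.998), MICOS13 (r = 0.996) and SLIT2 (r = 0.995). These are the highest correlations among all named probes tested, over arrays that share the 4 groups, and are given as a description.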

How the data were processed

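Total RNA of 8 samples was labelled with 1 dye and hybridized to Agilent arrays. The processed signal intensity of each spot is the deposited scanner output, background-corrected by Feature Extraction (10.7.3.1 in the submitters' processing notes, 11.5.1.1 in the file headers). The authors also deposited a log2 table, whose values matched quantile-normalized signals centred on each probe's median, and which was used as an alternative. Here spots of a probe were averaged as log2 intensity minus the 75th percentile of the array, control and outlier spots were left out, and a probe was tested where a group had both of its arrays well above background. limma 3.58.1 (R 4.3.3) was fitted to all 4 groups with no covariate, with Benjamini-Hochberg adjustment over all probes tested, a threshold of 0.05, 4 residual and 2.76 prior degrees of freedom and 95% intervals. diffSplice compared the probes of a gene. Both were tested on simulated data. Precision is limited by the 2 arrays in each group.

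Probes were named by RefSeq accession (GRCh38.p14), which gave 28174 of 50599 probes a gene. The members and lists were chosen with earlier results of these data known. The genes named were all members, SFPQ, every list gene called under silencing, a set of 13 list genes whatever their values, and the 3 genes most like CASP9 and like the member probe of largest average change. Alternatives were the scaling, background correction, authors' values, filter on dim probes, probe choice, moderation, replicate block and leaving out each array. The comparison of probes between lines and the alternatives for the control lines, SFPQ, TNFRSF10B, TNF and CRADD were added after the data were seen. Since 2 shRNAs were used in both lines, their numbers could pair samples. The deviations from the group means correlated between the lines at 0.07 for the controls and 0.35 for the shRNAs.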

Additional observations from a re-analysis of the deposited data

How the results depend on the processing

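Over 17 alternatives, 8 of them leaving out 1 array, the number of member probes called stayed at 0 for silencing in MDAH cells, in SKOV3 cells and for the difference between the lines. For the average it was 1 with normexp and quantile normalization and 1 with trend and robust moderation, CASP10 A_33_P3383283 both times (-0.56 and -0.55), and 0 otherwise. Between the control lines 6 to 10 probes were called, 6 without MDAH control 2 and 6 with named genes by brightest probe, where only 1 probe of each of the 8 genes was tested. CASP6, CASP8, both CASP10 probes, CFLAR A_23_P209394 and A_21_P0001952 were called under every alternative that tested them, which for CASP10 A_33_P3504659 and CFLAR A_21_P0001952 were 16 of the 17. The comparison of CFLAR, CASP10 and CASP2 probes between lines gave 5 calls with normexp and quantile normalization and 2 to 3 without 1 array. The replicate block gave 0 silencing calls and 9 calls between control lines, as without it. The control numbers carry no stated pairing, and the shRNA numbers mark the same construct in both lines.

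Among all probes, 780 were called in MDAH cells, against 348 with no filter on dim probes, 392 with only probes well above background on all arrays, 326 named genes by brightest probe, 1305 with normexp, 1495 with the replicate block, and 9 without MDAH control 1 to 2004 without MDAH sh-SFPQ#2. In SKOV3 cells 378 were called, against 92, 311, 156, 752 and 1091 in the same order, 726 with trend and robust moderation, and 51 without either MDAH control to 1611 without SKOV3 sh-SFPQ#2. For the average 1875 were called, against 558 with no filter, 889 by brightest probe, 3089 with the replicate block and 155 without MDAH control 1 to 3047 without MDAH sh-SFPQ#2. For the difference 42 were called, against 90 with quantile normalization, 90 with the authors' values and 0 to 336 without 1 array, and 0 with normexp, with no filter, with only bright probes, with trend and robust moderation and with the block.

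Values near 0 changed sign under another scaling, and the cause was not tested. With normexp and quantile normalization CASP2 A_23_P387943 was -0.00031 in MDAH cells and -0.016 on average, and between control lines CASP4 was -0.018 and CFLAR A_23_P156807 -0.054. With quantile normalization CASP2 A_23_P387943 was -0.0097 on average, CASP10 A_33_P3504659 0.013 on average, APAF1 0.019 in MDAH cells and CFLAR A_23_P156807 -0.065 between control lines. The authors' values gave -0.0092, 0.013, 0.019 and -0.066 for the same 4. With median centring CASP2 A_33_P3308387 was -0.0058 in SKOV3 cells, APAF1 0.054 in MDAH cells and CFLAR A_21_P0001952 0.034 in MDAH cells.

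Leaving out 1 array also turned signs. In MDAH cells the silencing change ranged from -0.15 to 0.29 for CASP2 A_23_P387943, from -0.41 to 0.11 for CASP2 A_33_P3308387, from -0.55 to 0.19 for CASP4, from -0.019 to 0.44 for CASP8, from -0.12 to 0.0083 for APAF1, and for CFLAR from -0.24 to 0.089 on A_21_P0001952, -0.094 to 0.51 on A_23_P156807 and -0.43 to 0.0041 on A_23_P209394. In SKOV3 cells it ranged from -0.26 to 0.11 and from -0.12 to 0.18 for the CASP2 probes in the same order, from -0.87 to 0.12 for CASP4, and for CFLAR from -0.37 to 0.098, from -0.070 to 0.15 and from -0.46 to 0.054. On average it ranged from -0.11 to 0.11 and from -0.19 to 0.067 for CASP2, from -0.21 to 0.10 for CASP10 A_33_P3504659, from -0.22 to 0.010 for CFLAR A_21_P0001952 and from -0.028 to 0.28 for A_23_P156807. Other values kept their sign but moved by over 1.5 times from the value with all arrays. In SKOV3 cells these were CASP9 (0.16 to 0.67), CFLAR A_24_P120115 (0.15 to 0.58), APAF1 (-0.95 to -0.41), CASP6 (-0.52 to -0.18), CASP8 (0.14 to 0.30) and CASP10 A_33_P3504659 (-0.68 to -0.048). In MDAH cells they were CASP6 (-0.24 to -0.012) and CASP10 A_33_P3504659 (0.11 to 0.39). On average they were APAF1 (-0.50 to -0.23), CASP6 (-0.32 to -0.15), CASP8 (0.10 to 0.33), CASP4 (-0.52 to -0.033) and CFLAR A_23_P209394 (-0.34 to -0.080). Below that mark were the averages of CASP9 (0.29 to 0.54), CASP10 A_33_P3383283 (-0.66 to -0.44) and CFLAR A_24_P120115 (0.24 to 0.45). Between control lines the difference ranged from -0.019 to 0.27 for CASP2 A_33_P3308387, from -0.20 to 0.69 for CASP4 and from -0.057 to 0.13 for CFLAR A_23_P156807.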
